A study of Mus musculus with 4 samples.

Results

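The mitochondrial carrier family Slc25 was described in the epigonadal fat of fasted male mice, a visceral white fat depot that lies against the epididymis and testis. The members were the genes with a symbol that begins with Slc25a and a digit, each read from a probe that names no other gene, which gave 46 genes of 22180 on the array. Affymetrix whole-transcript arrays were hybridised with RNA of 4 genotypes, 1 array each. The Irs1/2-flox control carries floxed alleles of the insulin receptor substrates Irs1 and Irs2 and no Cre. LDKO carries the same floxed alleles with a Cre recombinase under the albumin promoter, which is active in hepatocytes. The Irs1/2:FoxO1-flox control carries floxed Irs1, Irs2 and the transcription factor gene Foxo1 without Cre, and LTKO carries those alleles with albumin-driven Cre. Floxed Irs1 and Irs2 alleles, male sex and fasting were shared by all 4 groups. Age was 4 months for LDKO and LTKO and is not given for the controls in the sources used here, nor is the number of mice behind an array. The control without floxed Foxo1 is called the flox control below, and the other the FoxO1-flox control. The albumin promoter directs the deletion to liver and not to the fat that was measured.

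With 1 array per group there was no replicate, no standard error and no test, and differences were described by size. Levels are log2 signals after RMA normalization, and a difference of 1 log2 unit is 2-fold. A difference of at least 1.5-fold (0.58 on the log2 scale) is given as past the threshold, among genes that reached 5.15, the level of the median gene, on at least 1 array of the comparison. Precision is limited by this number of arrays. In fat RNA, fewer cells of a type and less RNA per cell cannot be told apart. Levels of different genes come from different probes and were not compared with each other.

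Carriers of this family sit in the inner mitochondrial membrane, where each moves a small set of metabolites between the matrix and the cytosol, and a few members sit in other membranes such as that of the peroxisome. In white fat the family links mitochondria to lipid synthesis, because citrate exported from the matrix supplies the acetyl units of fatty acids. Exchange of malate and other dicarboxylates supports the return of carbon and the supply of reducing power. Other members exchange ATP for ADP, import phosphate, bring in acyl-carnitines for oxidation, or carry cofactors, iron and amino acids.

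The upstream sequences of 4 carriers past the 1.5-fold threshold are shown, picked with their values known to cover both directions in LDKO and 1 gene of LTKO. They are not the 4 largest differences, since Slc25a35 and Slc25a21 are named only. Slc25a10 and Slc25a1 were higher in LDKO, Slc25a42 was lower in LDKO, and Slc25a13 was higher in LTKO. Each is the 250 bases before the start of the gene in RefSeq, build GRCm38.p6, written 5′ to 3′ on the strand of the gene. The positions are chr11:120491587-120491836 on the plus strand for Slc25a10, chr16:17928220-17928469 on the minus strand for Slc25a1, chr8:70212282-70212531 on the minus strand for Slc25a42 and chr6:6217174-6217423 on the minus strand for Slc25a13. Capitals mark matches on either strand to the E-box CACGTG, the CCAAT box CCAAT and the GC box GGGCGG, and no matches overlapped in these windows.
Slc25a10: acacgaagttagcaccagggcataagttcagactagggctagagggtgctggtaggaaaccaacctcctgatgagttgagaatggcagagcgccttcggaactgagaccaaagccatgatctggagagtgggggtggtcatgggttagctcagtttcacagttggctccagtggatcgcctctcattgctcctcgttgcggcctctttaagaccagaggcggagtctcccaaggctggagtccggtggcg
Slc25a1: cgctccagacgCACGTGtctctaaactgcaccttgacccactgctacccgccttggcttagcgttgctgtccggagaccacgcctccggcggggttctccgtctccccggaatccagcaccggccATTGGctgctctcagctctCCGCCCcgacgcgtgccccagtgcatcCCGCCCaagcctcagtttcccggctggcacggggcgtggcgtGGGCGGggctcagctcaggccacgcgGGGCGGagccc
Slc25a42: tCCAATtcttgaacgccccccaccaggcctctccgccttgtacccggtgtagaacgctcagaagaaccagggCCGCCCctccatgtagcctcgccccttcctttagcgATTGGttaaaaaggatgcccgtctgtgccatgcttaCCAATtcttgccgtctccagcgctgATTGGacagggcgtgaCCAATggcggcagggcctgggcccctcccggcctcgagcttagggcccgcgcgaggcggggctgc
Slc25a13: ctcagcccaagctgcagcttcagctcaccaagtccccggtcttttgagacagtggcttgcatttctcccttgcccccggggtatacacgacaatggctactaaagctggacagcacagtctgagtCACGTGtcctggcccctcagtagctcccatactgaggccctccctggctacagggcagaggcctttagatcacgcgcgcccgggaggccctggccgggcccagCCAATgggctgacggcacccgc
The Slc25a10 window held none of the 3 motifs, which says only that these letters are not in it. Slc25a1 held 1 E-box, 1 CCAAT box and 4 GC boxes, Slc25a42 held 5 CCAAT boxes and 1 GC box, and Slc25a13 held 1 E-box and 1 CCAAT box.

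RefSeq windows were matched for 36 of the 46 carriers, 46 windows in all, since some genes have several starts. The GC box was in 69.6% of the carrier windows, against 42.6% of 21262 windows of protein-coding genes of the same length. The E-box was in 17.4% against 6.63%, and the CCAAT box in 45.7% against 35.4%. TATAAA, the core of the TATA box, was in 4.35% of carrier windows against 11.6%. A sterol response-like motif, TCACNCCAC, was in 1 carrier window, that of Slc25a18, and the palindromic core of the NRF1 motif was in none. Windows of 1 gene can overlap, and a match is a description of letters, not a site in use.

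Fat identity was read first. Adiponectin (Adipoq) lay between 10.35 and 10.57 on the 4 arrays, and perilipin (Plin1) between 9.56 and 10.08. The 9 fat cell genes summed to between 24902 and 25966 in linear signal, a sum set mostly by bright genes such as Fabp4 and Cidec. Within the list the glucose transporter Slc2a4 was at 1.03 and leptin (Lep) at 0.85 in LDKO against its own control. Lep was at 0.74 in LTKO and differed by -0.77 between the controls. Genes of neighbouring tissues differed between arrays. The summed linear signal of 9 liver genes was 1526 in LTKO and 292 to 374 in the other arrays, and that of 7 epididymis genes was 702 in LTKO and 108 to 112 elsewhere. For skeletal muscle, 11 genes summed to 1046 in the flox control and 458 to 573 elsewhere, and for mesothelium, the membrane over the fat pad, 9 genes summed to 2156 there and 1267 to 1437 elsewhere.

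**Figure D1:**
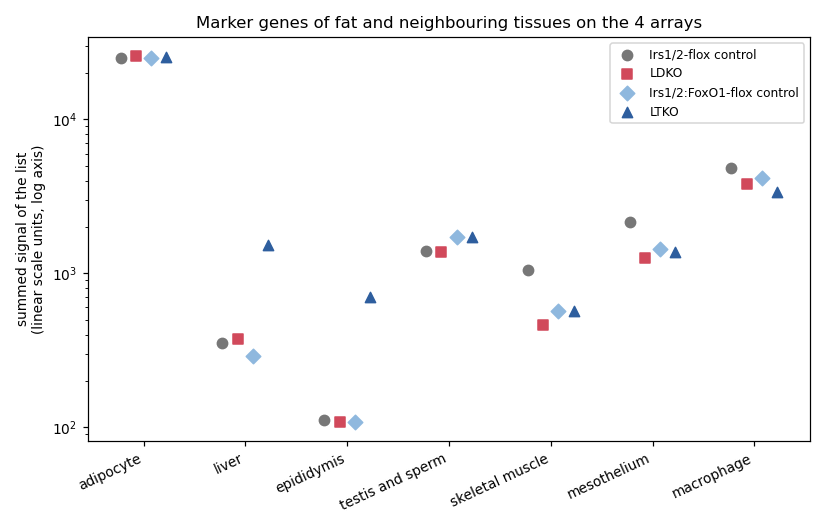
Summed linear signal (log axis) of marker genes of fat and neighbouring tissues, with 1 symbol per array and no error bars because each group has 1 array. Liver and epididymis genes were highest in LTKO, at 1526 and 702, and muscle and mesothelium genes were highest in the flox control, at 1046 and 2156.

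Of the 46 carriers, 38 reached the median gene on at least 1 array, and each carrier had 1 probe. The other 8 stayed below it on all 4 arrays. These were the ornithine carrier Slc25a2, the glutamate carrier Slc25a18, Slc25a29, the germ-cell ADP/ATP carrier Slc25a31, Slc25a41, Slc25a43, Slc25a53 and Slc25a54. Their levels ran from 3.28 for Slc25a41 in LTKO to 4.94 for Slc25a53 in the FoxO1-flox control. The flox control was the lowest of the 4 arrays for 15 of the 38 carriers (39.5%), against 23.8% of all genes past the same filter. LDKO was the highest array for 13 of the 38 (34.2%), against 22.7% of all genes, and the lowest for 13, against 37.4% of all genes.

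**Figure D2:**
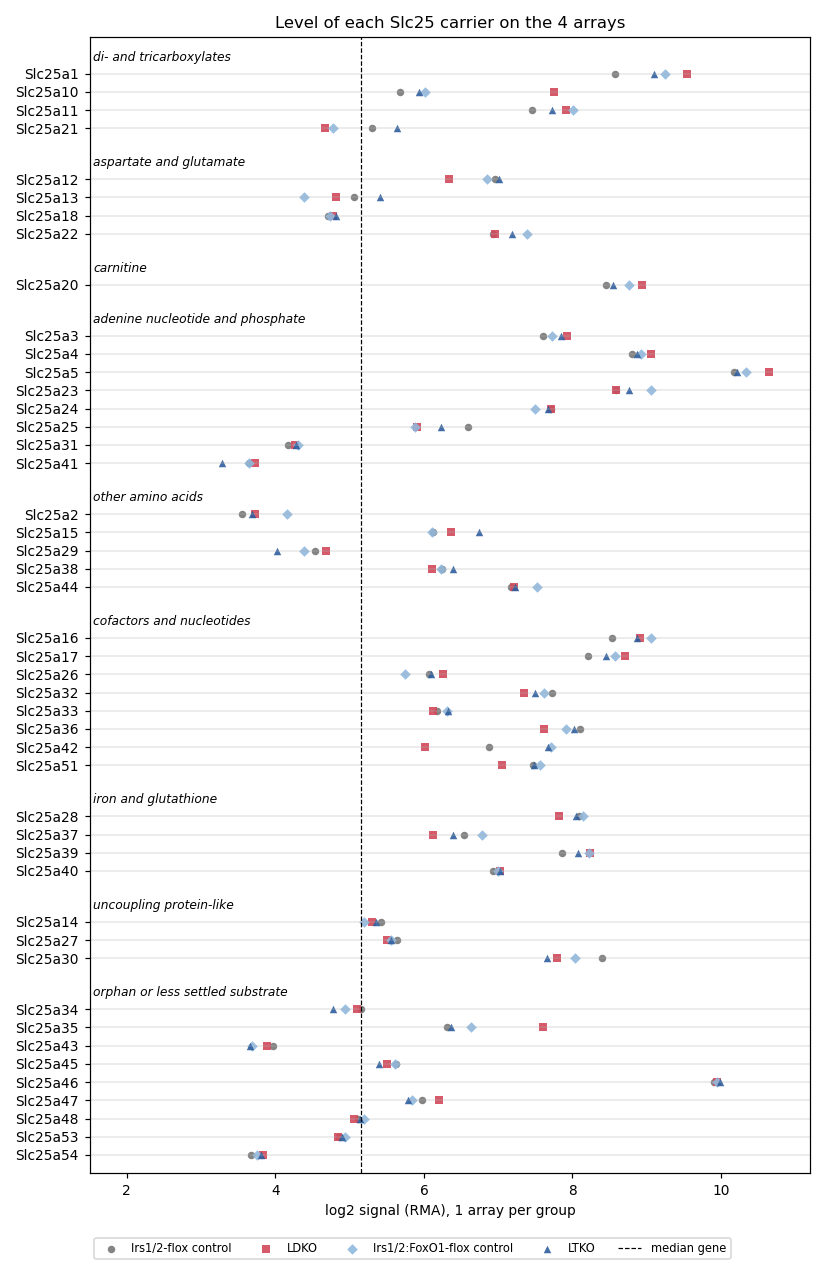
Level of each of the 46 carriers (log2 signal) on the 4 arrays, 1 symbol per array, grouped by substrate. The dashed line is the median gene at 5.15. For Slc25a10 the LDKO symbol lies at 7.75 and the other arrays between 5.68 and 6.02.

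The comparison of LDKO with the flox control asks how carrier levels in fat differ when the liver lacks Irs1 and Irs2. The dicarboxylate carrier Slc25a10 was 4.20-fold higher in LDKO, Slc25a35, a carrier without a settled substrate, 2.45-fold higher and the citrate carrier Slc25a1 1.96-fold higher. The coenzyme A carrier Slc25a42 was 1.81-fold lower, and Slc25a25, Slc25a21, Slc25a12 and Slc25a30 were 1.53-fold to 1.61-fold lower. In all, 3 carriers were past the threshold upward and 5 downward, of 36 past the filter (22.2%). Of all 11533 genes past the filter 6.74% were past the threshold, 2.85% upward and 3.88% downward. Slc25a21 passed the filter through the flox control alone, where it is high. The 5 downward and the 22.2% are therefore not read against the shares of all genes. The median difference of the carriers was 0.01, beside -0.05 for all genes, and the median size without its sign was 0.35, beside 0.18. Of the 36 carriers 19 were above 0 (52.8%), beside 43.2% of all genes, so members lay on both sides. At 2-fold 2 of the 36 were past the threshold, against 1.2% of all genes, and at 3-fold 1, against 0.26%. Against the mean of both controls 4 of 37 were past 1.5-fold, against 4.73%.

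**Figure D3:**
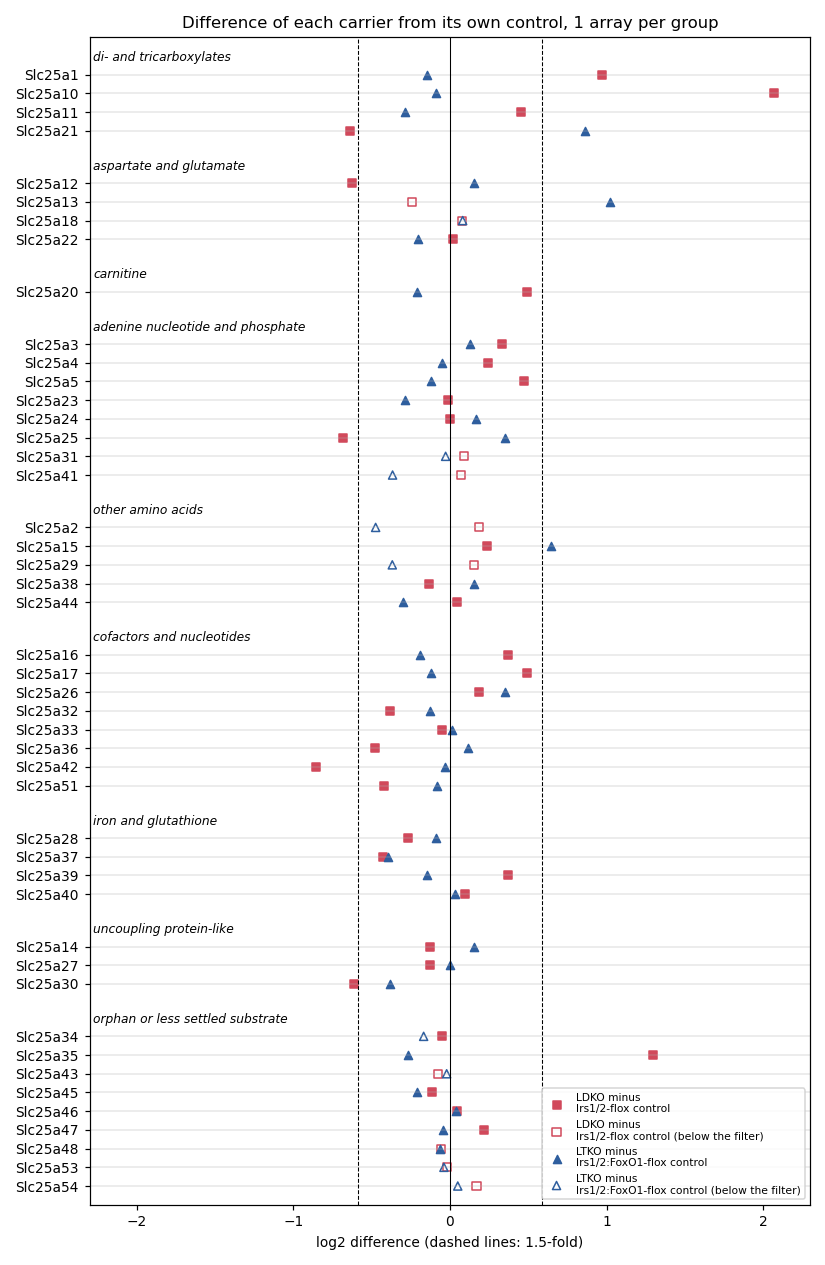
Log2 difference of each carrier from its own control, with squares for LDKO minus the flox control, triangles for LTKO minus the FoxO1-flox control, and open symbols where the gene was below the filter. Dashed lines mark 1.5-fold. Slc25a10 at 2.07 and Slc25a35 at 1.30 lie farthest right among the squares, and Slc25a42 at -0.86 farthest left.

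Among the carriers of di- and tricarboxylates, Slc25a10 exchanges malate and succinate for phosphate and is known to be abundant in white fat. Its level was 5.68 (flox control), 7.75 (LDKO), 6.02 (FoxO1-flox control) and 5.93 (LTKO). LDKO was thus far above the other 3 arrays, which lay within 0.34 of each other, and against the other control the difference was 1.73. Slc25a1, which exports citrate in exchange for malate, was at 8.57 and 9.54 in the flox control and LDKO and at 9.25 and 9.10 in the FoxO1-flox control and LTKO. Here the flox control stood low, and against the other control LDKO was higher by 0.30, below the threshold. The oxoglutarate carrier Slc25a11, which exchanges oxoglutarate for malate in the malate-aspartate shuttle, was at 7.45 and 7.91 in the first pair and at 8.003 and 7.72 in the second. Its 0.45 in LDKO was below the threshold and was -0.10 against the other control. Slc25a21 carries oxoadipate and oxoglutarate in the breakdown of lysine and tryptophan, and it was at 5.31, 4.67, 4.77 and 5.64 on the flox control, LDKO, FoxO1-flox control and LTKO arrays. It was lower in LDKO by 0.64 on the log2 scale against its own control, and the difference was -0.11 against the other.

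Slc25a35 was at 6.31 (flox control), 7.60 (LDKO), 6.63 (FoxO1-flox control) and 6.36 (LTKO). LDKO was above all other arrays, by 0.97 against the nearest. A further probe that the annotation assigns to both Slc25a35 and its neighbour Rangrf was left out of the family, and it read 4.22, 4.69, 4.39 and 4.42 in the same order, all below the median gene. Its LDKO difference was 0.47, on the same side.

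**Figure D4:**
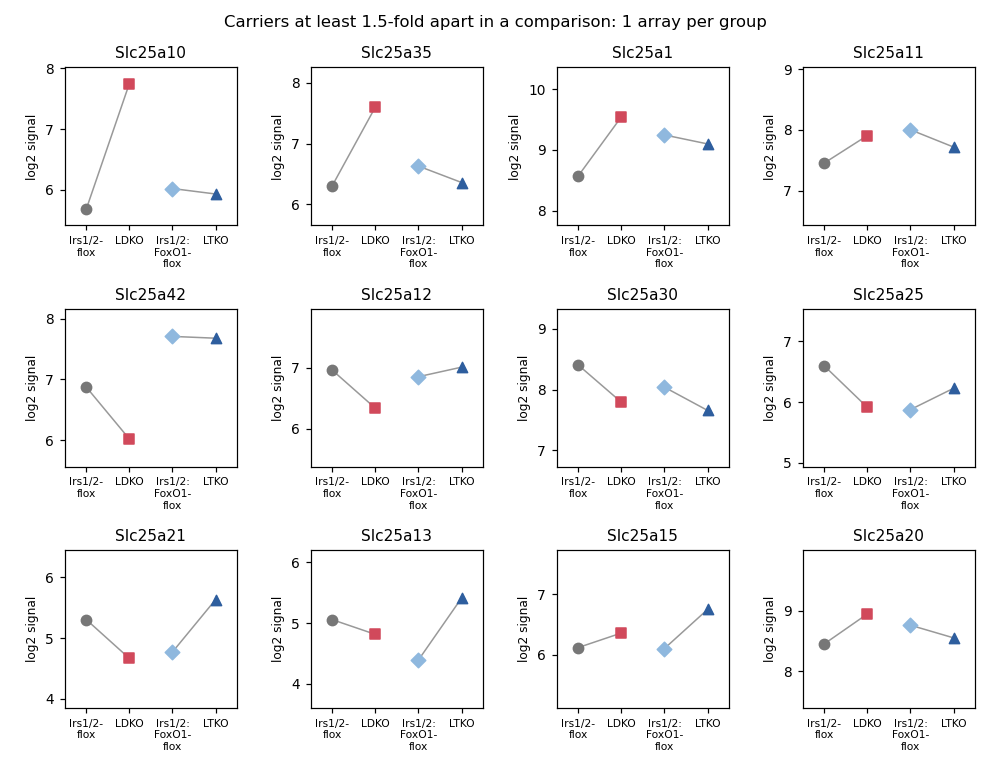
Level (log2 signal) of 12 carriers that were at least 1.5-fold apart in a comparison, with 1 symbol per array and a line from each control to the Cre line that shares its floxed alleles; each panel spans the same 2.6 log2 units. LDKO stands apart upward for Slc25a10 and Slc25a35, and for Slc25a42 both arrays of the flox line lie below both arrays of the FoxO1-flox line.

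Carriers of cofactors and nucleotides were split. Slc25a42, which brings coenzyme A into the matrix, was at 6.87 in the flox control and 6.02 in LDKO, but at 7.71 and 7.68 in the FoxO1-flox control and LTKO. LDKO was the lowest array, and the 2 arrays of the FoxO1-flox line were the high ones. The difference of LDKO was -0.86 against its own control and -1.69 against the other. The peroxisomal carrier Slc25a17, known to carry coenzyme A and other nucleotide cofactors, differed by 0.49 in LDKO, and Slc25a16 by 0.37. Lower values without reaching the threshold were those of the pyrimidine nucleotide carrier Slc25a36 at -0.48, the NAD carrier Slc25a51 at -0.42 and the folate and FAD carrier Slc25a32 at -0.38. The S-adenosylmethionine carrier Slc25a26 was at 0.18 and the pyrimidine nucleotide carrier Slc25a33 at -0.05. Of the 8 members measured in this group 3 were higher and 5 lower, with a median of -0.22.

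The aspartate and glutamate carriers included Slc25a12, the calcium-regulated carrier of the malate-aspartate shuttle, at 6.96 (flox control), 6.34 (LDKO), 6.86 (FoxO1-flox control) and 7.01 (LTKO). LDKO was the low array and the other 3 lay close together. The difference was -0.63 against its own control and -0.52, short of the threshold, against the other. The glutamate carrier Slc25a22 differed by 0.02, and Slc25a13, the carrier that serves the urea cycle in liver, was below the filter in this comparison. Muscle, which is rich in several carriers, was read beside these values. In LDKO 5 of 7 skeletal muscle genes past the filter lay past the threshold downward, with a median of -1.08. So did 5 of 9 mesothelium genes, with a median of -0.69. The muscle genes Myh4, Ttn and Atp2a1 and the mesothelium gene Muc16 passed the filter through the flox control alone, where they are high. The counts are therefore not read against the 3.88% of all genes past the threshold downward. The part of muscle and mesothelium genes in the carrier differences was not tested.

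The carriers of adenine nucleotides and phosphate differed less. Slc25a5, the ADP/ATP carrier form known from proliferating cells, was at 10.17 (flox control), 10.64 (LDKO), 10.33 (FoxO1-flox control) and 10.21 (LTKO). LDKO was the highest array, by 0.31 over the nearest, and no difference of Slc25a5 from a control reached the threshold. The heart and muscle ADP/ATP carrier Slc25a4 differed by 0.25 in LDKO, and the phosphate carrier Slc25a3 by 0.33. Slc25a25, a calcium-regulated carrier of ATP-magnesium and phosphate, was at 6.60 (flox control), 5.91 (LDKO), 5.88 (FoxO1-flox control) and 6.23 (LTKO). Its 1.61-fold lower value in LDKO went with a high flox control, since the difference was 0.04 against the other control. Its relatives Slc25a23 and Slc25a24 differed by -0.01 and 0.00.

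Of the remaining groups, the carnitine and acylcarnitine carrier Slc25a20 was at 8.45 and 8.94 in the flox control and LDKO and at 8.76 and 8.55 in the FoxO1-flox control and LTKO, a difference of 0.49 in LDKO. Among carriers linked to iron and glutathione, the mitoferrin Slc25a37 was at 6.54, 6.12, 6.78 and 6.39 on the flox control, LDKO, FoxO1-flox control and LTKO arrays. It differed by -0.43 in LDKO against its own control and passed the threshold against the other, at -0.66. The other mitoferrin, Slc25a28, differed by -0.27, and the glutathione carriers Slc25a39 and Slc25a40 by 0.37 and 0.09. Slc25a30, a relative of the uncoupling proteins, was at 8.40 (flox control), 7.79 (LDKO), 8.04 (FoxO1-flox control) and 7.66 (LTKO). The flox control was its highest array, and the difference of LDKO was -0.61 against it and -0.25 against the other control. Carriers of other amino acids were near 0 in LDKO, with the ornithine carrier Slc25a15 at 0.24, the branched-chain amino acid carrier Slc25a44 at 0.05 and the glycine carrier Slc25a38 at -0.14. The outer membrane member Slc25a46 lay between 9.90 and 9.98 on all arrays, the narrowest of the carriers named here.

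With LDKO set against the FoxO1-flox control, 4 of 35 carriers were past the threshold, Slc25a10 and Slc25a35 upward and Slc25a37 and Slc25a42 downward, against 7.04% of all genes. A stricter reading, chosen after the data were seen, asked for LDKO to be at least 1.5-fold beyond all 3 other arrays. Slc25a10 and Slc25a35 were above them, where 0.761% of all genes were, and Slc25a42 was below them, where 0.97% of all genes were. No carrier stood this far from all others on another array. The shares of all genes above and below were 1.61% and 0.1% for LTKO, 0.435% and 0.276% for the flox control, and 0.117% and 0.46% for the FoxO1-flox control.

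**Figure D5:**
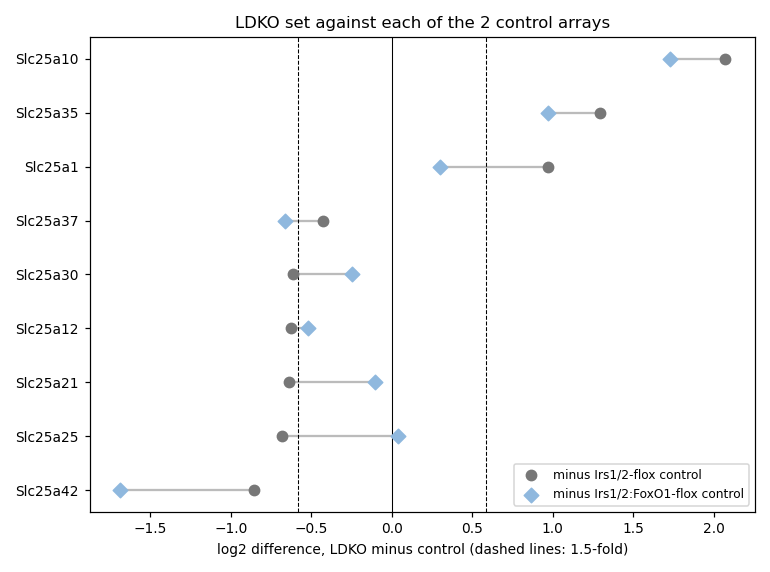
Log2 difference of LDKO from the flox control (circles) and from the FoxO1-flox control (diamonds) for the 9 carriers past 1.5-fold (dashed lines) against at least 1 of them; all differences share the LDKO array. Slc25a10, Slc25a35 and Slc25a42 are past the line with both controls, and Slc25a25 moves from -0.68 to 0.04.

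The comparison of LTKO with the FoxO1-flox control asks the same when the liver also lacks Foxo1. Slc25a13 was 2.03-fold higher in LTKO, Slc25a21 1.82-fold higher and Slc25a15 1.56-fold higher, and no carrier was past the threshold downward. Of all genes 4.41% were past the threshold, 3.55% upward and 0.867% downward. Slc25a13 and Slc25a21 passed the filter through the LTKO array alone, where they are high, and with a filter at the 70th percentile gene 1 carrier was left, so the count of 3 of 37 is not read against that share. The median carrier differed by -0.06, beside -0.03 for all genes, and the median size was 0.15, beside 0.13. At 2-fold 1 carrier was past the threshold, against 1.78% of all genes, and at 3-fold none, against 0.668%. The large LDKO differences were not seen here, with Slc25a10 at -0.09, Slc25a1 at -0.15, Slc25a35 at -0.27 and Slc25a42 at -0.03.

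Slc25a13, the aspartate and glutamate carrier of liver, was at 5.06 (flox control), 4.81 (LDKO), 4.39 (FoxO1-flox control) and 5.41 (LTKO). LTKO was the only array above the median gene, and against the flox control its difference was 0.36, below the threshold. Slc25a21 was also highest in LTKO, at 5.64, with the flox control next at 5.31, and its difference was 0.33 against that control. The ornithine carrier Slc25a15, which serves the urea cycle, was at 6.12 (flox control), 6.36 (LDKO), 6.10 (FoxO1-flox control) and 6.75 (LTKO). Both controls were close for Slc25a15, so its difference was 0.64 against its own control and 0.63 against the other. With the flox control as reference 3 of 37 carriers were past the threshold, against 5.01% of all genes, and of the 3 above this was Slc25a15 alone. The others were Slc25a42, higher at 0.80, and Slc25a30, lower at -0.75.

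Liver and epididymis genes were high in the same array. Of 9 liver genes 7 passed the filter, and each of the 7 was past the threshold upward in LTKO. Albumin (Alb) was at 9.82 against 6.93 in the FoxO1-flox control, and the urea cycle enzyme Cps1 at 5.98 against 4.42. Apoa1, Ahsg, Serpina1c, Cps1 and Apob passed the filter through the LTKO array alone, where they are high. Alb and Tat reached the median gene on both arrays. All 5 epididymis genes and 5 of 6 testis genes past the filter were higher too. The higher ones passed it through the LTKO array alone. The liver, epididymis and testis counts are therefore not read against the 3.55% of all genes past the threshold upward. Below the filter the epididymis genes Lcn5 and Spint4 differed by 0.02 and -0.13. Slc25a47, a carrier known as specific to liver, was at 5.84 in the FoxO1-flox control and 5.79 in LTKO, and it was highest in LDKO at 6.20. The germ-cell carrier Slc25a31 was below the median gene on all arrays, at 4.30 in the FoxO1-flox control and 4.28 in LTKO. The part of the liver, epididymis and testis genes in the values of Slc25a13, Slc25a21 and Slc25a15 was not tested.

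The remaining carriers differed little in LTKO. Among carriers past the filter, those of adenine nucleotides and phosphate ran from -0.29 for Slc25a23 to 0.35 for Slc25a25, and those of cofactors and nucleotides from -0.19 for Slc25a16 to 0.35 for Slc25a26. The mitoferrin Slc25a37 and Slc25a30 were the lowest among the carriers past the filter, at -0.39 and -0.38. Slc25a20 was at -0.21.

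The 2 control arrays show how far arrays without Cre lay apart. The FoxO1-flox control was 1.78-fold higher than the flox control for Slc25a42 and 1.60-fold higher for Slc25a1, and 1.65-fold lower for Slc25a25. These 3 of 37 carriers (8.11%) compare with 4.55% of all genes, 2.06% upward and 2.48% downward. None was past 2-fold or 3-fold, against 0.77% and 0.105%. Slc25a11 and Slc25a16 were higher by 0.55 and 0.53, and the median carrier by 0.08, beside 0.03 for all genes. Slc25a42 thus differed between the floxed lines about as much as between LDKO and its own control.

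The LTKO effect minus the LDKO effect gives how far the differences from the own controls lay apart, and it holds the noise of all 4 arrays. Of 38 carriers 13 were past the threshold, 6 of them positive and 7 negative, which is 34.2%, against 13% of all genes, 7.85% positive and 5.18% negative. At 2-fold there were 6, against 4.01%, and at 3-fold 1, against 1.24%. Slc25a13, counted at 1.5-fold and 2-fold, passed the filter through the LTKO array alone, where it is high. Slc25a21, also counted at both, passed it through the flox control and LTKO alone, its high arrays. Both arrays enter the difference of effects with a plus sign. The counts at 1.5-fold and 2-fold are therefore not read against the shares of all genes. Slc25a10 (-2.16), Slc25a35 (-1.57) and Slc25a1 (-1.12) were the most negative, and Slc25a21 (1.502), Slc25a13 (1.26) and Slc25a25 (1.04) the most positive. Also negative were Slc25a11 (-0.74), Slc25a20 (-0.70), Slc25a17 (-0.62) and Slc25a5 (-0.59), and also positive were Slc25a42 (0.83), Slc25a12 (0.78) and Slc25a36 (0.60). The median was -0.01, beside 0.02 for all genes. With LTKO set directly against LDKO 6 of 36 carriers were past the threshold, against 7.98% of all genes, and they were Slc25a10 at -1.82, Slc25a35 at -1.24, Slc25a42 at 1.66, Slc25a21 at 0.97, Slc25a12 at 0.68 and Slc25a13 at 0.60. Slc25a21 and Slc25a13 passed the filter of this direct comparison through the LTKO array alone, where they are high, so its count is not read against that share. The direct value leaves out the controls and holds any difference between the floxed lines.

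Enzymes that work with the carriers were read from lists by pathway, chosen with earlier results of these data known. Of 9 genes around citrate and dicarboxylate export, 6 were past the threshold upward in LDKO against its own control and none downward. Of all genes 2.85% were past it upward and 3.88% downward, but counts of lists chosen this way are not read against such shares. The median of the 9 was 0.67. The malic enzyme Me1, which makes NADPH from cytosolic malate, was at 9.92 (flox control), 10.94 (LDKO), 10.23 (FoxO1-flox control) and 10.28 (LTKO). It was the only one of the 9 that was also past the threshold upward against the other control, at 0.70. Pyruvate carboxylase Pcx (0.72), citrate synthase Cs (0.80), the malate dehydrogenases Mdh1 (0.67) and Mdh2 (0.64) and Fasn (1.47) were past it against the own control alone. ATP citrate lyase Acly, which splits the exported citrate, was at -0.08 in LDKO. In LTKO none of the 9 was past the threshold, against 4.41% of all genes, and the median was -0.06.

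In the malate-aspartate shuttle the cytosolic aminotransferase Got1 was at -0.61 in LDKO and Got2 at -0.22, while both malate dehydrogenases were higher, as given above. Got1 was at -0.00 against the other control, and the controls differed by -0.60 for it. Of the carnitine shuttle, Cpt2, which takes acyl groups from carnitine in the matrix, was at 0.70 and the carnitine importer Slc22a5 at -0.59 in LDKO, with Cpt1a at -0.15. Against the other control Cpt2 was at 0.27, below the threshold, and Slc22a5 at -0.60. Partners of ATP export, 7 genes past the filter such as Vdac1 (0.05), had none past the threshold in LDKO and a median of 0.21. Partners of iron and glutathione carriers (5 genes, median 0.12), import and outer membrane genes (9 genes, median 0.08) and regulators of mitochondrial biogenesis (10 genes, median -0.06) also had none. None of these 4 lists had a gene past the threshold in LTKO against its own control. Of all genes 6.74% were past it in LDKO and 4.41% in LTKO. The biogenesis regulator Ppargc1a was at -0.48 in LDKO against its own control and at -0.87, past the threshold, against the other.

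Relatives of the family outside the symbol rule were also read, 4 uncoupling and outer membrane proteins and 8 other inner membrane carriers. The thermogenic uncoupling protein Ucp1 was at 5.24 (flox control), 4.83 (LDKO), 5.80 (FoxO1-flox control) and 5.05 (LTKO), near the median gene throughout, and it was lower in LTKO than in its control by 0.75. Ucp3, an uncoupling protein of muscle and fat, was at 7.18, 6.53, 7.61 and 7.51 in the same order. LDKO was its low array, at -0.65 against its own control and -1.08 against the other. Mtch1 and Mtch2, members of the outer membrane, differed by 0.16 and 0.25 in LDKO. The pyruvate carrier subunit Mpc1, of another family, was at 10.62, 11.36, 11.04 and 11.03. Its difference in LDKO was 0.74 against its own control and 0.32 against the other. Of the 8 it was the only one past the threshold in LDKO against its own control, where 6.74% of all genes were. Sfxn1 was at -0.26 in LDKO against its own control and at -0.77, past the threshold, against the other.

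On the GRCm38.p6 annotation 4 pairs of carriers are direct neighbours, Slc25a5 with Slc25a43, Slc25a23 with Slc25a41, Slc25a24 with Slc25a54 and Slc25a29 with Slc25a47. In each pair 1 gene was below the median gene on all arrays, so the pairs could not be compared. Genes next to carriers that differed in LDKO from all other arrays were read for the same comparison. Mrpl12, beside Slc25a10, differed by 0.52 in LDKO and Gcgr, on its other side, by 0.15, though Gcgr was below the filter. Arhgef15, beside Slc25a35, differed by -0.22 and Tmem161a, beside Slc25a42, by -0.19. Rangrf, on the other side of Slc25a35, and Armc6, on the other side of Slc25a42, had no probe that names no other gene and were not read. The neighbours that were read were all below the threshold.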

How the data were processed

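RNA of epigonadal fat from 4 genotypes was measured on 1 array each. The authors deposited log2 values, 1 per probe set, from Expression Console and RMA, tools that the submitters' processing notes name without a version. RMA corrects background, gives all arrays 1 distribution and combines the probes of a set. RMA removes a shift common to all genes and compresses differences of dim probes.

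Of 41345 probes 23521 name 1 gene, 1814 several and 16010 none. Of the first, 23328 were matched by gene identifier to GRCm38.p6 and take its symbol. A gene is its probe with the highest mean. The filter asks for the highest array of a comparison to reach the median gene. With 1 array per group no test was made. Groups follow the source names. Named were all carriers past 1.5-fold, at least 1 of each substrate group, and listed partners, relatives, markers and neighbours; some further carriers and markers were named after their values were seen. Members and lists were chosen with earlier results of these data known. Steps were tested on simulated data. Alternatives were 2-fold and 3-fold thresholds, other filters, the mean of all probes, renewed quantile normalization, centring, a loess curve (span 0.3) and other reference arrays. Python 3.11.15, numpy 2.4.6, pandas 2.3.3, statsmodels 0.14.6 and matplotlib 3.10.9 were used.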

Additional observations from a re-analysis of the deposited data

Results flagged for a closer look

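Slc25a21, the carrier of oxoadipate and oxoglutarate, lay on opposite sides in the 2 lines by at least 1.5-fold each. It was at -0.64 in LDKO and 0.86 in LTKO against their own controls, so the effects differed by 1.502. It was the only carrier that did so among the 35 past the filter in both comparisons. The share of all genes that did so was not counted, so this count is not read as a trait of the family. Slc25a21 passed each filter through its high array alone, the flox control at 5.31 and LTKO at 5.64. Against the other control the differences were -0.11 in LDKO and 0.33 in LTKO. The difference of effects was not tested, since each group has 1 array. The controls themselves differed by -0.53 for Slc25a21.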

How the results depend on the processing

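No paired analysis was possible because each group has 1 array and the labels give no replicate numbers. The 8 carriers past 1.5-fold in LDKO became 2 at 2-fold and 1 at 3-fold, 4 with the mean of both controls or with the other control as reference, and 3 against all 3 other arrays (added after the data were seen). The 3 in LTKO became 1 at 2-fold, 0 at 3-fold, 1 with a filter at the level of the 70th percentile gene and 0 against all 3 other arrays (also added later), and with the other control the median was 0.068 in place of -0.06. The 3 between the controls became 0 at 2-fold and at 3-fold and 5 with no filter. The 13 in the difference of effects became 6 at 2-fold, 1 at 3-fold and 6 with LTKO directly against LDKO, and the median became -0.21 with that stricter filter. Slc25a25 in LDKO reversed to 0.037 against the other control. Under the stricter filter, centring, quantile and loess steps, of 108 single-carrier values 95 stayed past the threshold on the same side and 13 fell below the threshold or the filter. The mean of all probes and no filter cannot move these values, since each carrier has 1 probe and was already past the filter. With other reference arrays 17 stayed, 17 fell below and 1 reversed. Other counts stayed within 1.5 times and other medians moved by under 0.1. Dim carriers have compressed differences after RMA.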
